A study of Cloeon viridulum with 15 samples.

Results

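Vitellogenin, the vitellogenin receptor and bicaudal C were followed through the life cycle of the mayfly Cloeon viridulum as 3 of the 91881 unigenes, which are transcript sequences assembled from the reads without a genome. They were chosen by name from the annotation column: 13_Contig_814 (3900 bp, vitellogenin, best protein hit in the sawfly Athalia rosae), 13_Contig_5313 (3033 bp, vitellogenin receptor, best hit in the cockroach Periplaneta americana) and 13_Contig_854 (3649 bp, bicaudal C, best hit in the ant Harpegnathos saltator). All 3 had enough reads to be tested. Unigenes carry no chromosome position and no sequence was used here.

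RNA of whole bodies was sequenced at 4 stages, the young larva, the mature larva, the winged subimago and the imago, together with a mixture of these stages that serves as the control group. Each group had 3 libraries, 15 in all. Bodies of 10 young larvae went into each of their libraries, and 3 males with 3 females into each library of the mature larva, the subimago and the imago. The mixture libraries held 5 young larvae and 2 animals of each of the other stages. All animals came from young larvae caught in the field and were kept at 22 °C under long days. The sex of the young larvae is not given in the labels, and each later library averages over both sexes and all tissues, so values for females, ovaries or fat body alone are not available from these pools.

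In insects vitellogenin is made mostly by the fat body of the female, travels in the haemolymph and is stored in the growing egg as yolk. The vitellogenin receptor, a member of the low-density lipoprotein receptor family that is known as Yolkless in Drosophila, binds it at the surface of the oocyte and carries it in by clathrin-mediated endocytosis. Bicaudal C is an RNA-binding protein that represses translation of localised messages in the Drosophila ovary and is required there for normal egg patterning. Adult mayflies do not feed, so the food for eggs has to be gathered by the larva.

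Library totals ran from 36550269 to 74837923 reads. Mature larva replicate 1 shared many unigenes with the young larvae. A set of 1244 unigenes was defined by a minimum of reads in every young larva library and by no reads in the remaining 8 libraries of the single later stages. Of this set, mature larva replicate 1 held reads of 1239, and the mixture libraries of 87, 127 and 134. The rule itself fixed those 8 libraries at no reads, so it does not compare them with mature larva replicate 1. A single unigene, First_Contig81, made up 2.92% of mature larva replicate 1, 21.5% of subimago replicate 3, 18.5% of imago replicate 2, 34.3% of mixture replicate 3 and at most 0.305% of every other library. In the young larvae 16.4%, 4.49% and 10.7% of all reads lay on unigenes with a best hit outside the arthropods, as did 5.86% in mature larva replicate 1 and 1.17% to 3.25% in each remaining library. Levels below are deposited RPKM values, which are reads scaled to unigene length and library total, or CPM values, which are reads scaled to library size after TMM normalisation and not to length. Log2 changes ± SE and adjusted p-values come from edgeR's quasi-likelihood test over 34131 unigenes with Benjamini-Hochberg adjustment, and calls were made at an adjusted p of less than 0.05. The p-values measure the spread between these pooled libraries.

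All 3 unigenes were nearly silent in the young larva, were called higher in the mature larva, and had their highest stage mean in the imago. In the mature larva vitellogenin ranked 675, bicaudal C 178 and the receptor 4655 by mean RPKM among the 15001 unigenes with an arthropod best hit. Bicaudal C and the receptor were called higher again in the imago over the subimago, by 2.81-fold and 1.93-fold. The call of bicaudal C held when any 1 library was left out, while that of the receptor was lost without some single libraries. Another long receptor unigene, 13_Contig_598, was not called at this step (log2 change -0.08 ± 0.33). No change of vitellogenin between the later stages passed the test, and none of the ratios between the 3 unigenes differed between those stages after adjustment. Vitellogenin was, of the 3, the only one whose mixture libraries all lay above every stage library.

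Vitellogenin, the yolk precursor, had 4, 10 and 13 reads in the young larvae, which are 0.0281, 0.0580 and 0.0683 RPKM. In the mature larvae it had 47.2, 20.1 and 64.4 RPKM, in the subimagoes 39.6, 64.6 and 45.8 RPKM, and in the imagoes 124.5, 59.6 and 107.5 RPKM. Every mature larva library lay far above every young larva library, while the mature larvae and the subimagoes overlapped. Imago replicates 1 and 3 were the highest of the 12 stage libraries in RPKM, and imago replicate 2 lay within the range of the mature larvae.

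Vitellogenin averaged 197 ± 89.8 CPM in the mature larvae and 0.164 ± 0.0713 CPM in the young larvae (SD, n = 3 each), a log2 change of 10.18 ± 0.51 (adjusted p = 9.85e-09). The subimagoes averaged 191 ± 46.3 CPM, and their log2 change against the mature larvae was -0.04 ± 0.34 (adjusted p = 0.937). The imagoes averaged 324 ± 87.0 CPM, and although their 3 CPM values lay above those of the subimagoes, the log2 change of 0.76 ± 0.34 was not called (adjusted p = 0.165). Against the mature larvae the imagoes changed by a log2 value of 0.72 ± 0.34 (adjusted p = 0.0979) with overlapping libraries. This last difference was called without mature larva replicate 3 (1.16, adjusted p = 0.0123), and DESeq2 called both differences of the imago (0.89 against the subimago, adjusted p = 0.0399, and 0.87 against the mature larva, adjusted p = 0.0247). In a whole body a change in the number of cells that make a transcript and a change in the transcript per cell cannot be told apart.

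The vitellogenin receptor, the protein that brings yolk into the oocyte, was without reads in all of the 3 young larva libraries, which allows up to 0.0189 CPM over the group at 3 reads. It had 13.2, 11.8 and 11.0 RPKM in the mature larvae, 17.2, 32.2 and 19.1 RPKM in the subimagoes and 50.3, 42.4 and 55.2 RPKM in the imagoes. All 3 imago libraries lay above all libraries of the other stages, and in RPKM the subimagoes lay above the mature larvae. In CPM these stages overlapped, with 46.6 CPM in subimago replicate 1 and 56.1 CPM in mature larva replicate 2.

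Against the floor of 3 reads over the young larva group, the receptor was at least 2346-fold higher in the mature larva (adjusted p = 1.05e-08), at least 3562-fold higher in the subimago and at least 6879-fold higher in the imago. It averaged 67.2 ± 18.9 CPM in the subimagoes and 44.3 ± 10.3 CPM in the mature larvae (log2 change 0.60 ± 0.27, adjusted p = 0.120). The imagoes averaged 129.8 ± 5.76 CPM and stood above both, with a log2 change of 0.95 ± 0.27 over the subimagoes (adjusted p = 0.0391) and 1.55 ± 0.28 over the mature larvae (adjusted p = 0.00199). The call against the subimagoes was lost when imago replicate 1, 2 or 3 or subimago replicate 1 or 3 was left out, with log2 changes of 0.75 to 1.02 and adjusted p of 0.0549 to 0.152. The call against the mature larvae was kept when any 1 library was left out (1.45 to 1.70).

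Bicaudal C, the RNA-binding protein of egg patterning, had 16, 29 and 36 reads in the young larvae, or 0.120, 0.180 and 0.202 RPKM. It reached 91.6, 101.4 and 160.9 RPKM in the mature larvae, 154.8, 283.8 and 213.6 RPKM in the subimagoes and 731.8, 581.7 and 777.9 RPKM in the imagoes. The imago libraries all lay well above the highest library of any other stage, while mature larva replicate 3 lay just above subimago replicate 1. In the imago bicaudal C ranked 14th by mean RPKM among the 15001 unigenes with an arthropod best hit, against rank 69 in the subimago, 178 in the mature larva and 12110 in the young larva.

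Bicaudal C averaged 528 ± 197 CPM in the mature larvae and 0.501 ± 0.142 CPM in the young larvae, a log2 change of 10.03 ± 0.46 (adjusted p = 4.44e-09). The subimagoes averaged 784 ± 245 CPM, not called against the mature larvae (0.57 ± 0.31, adjusted p = 0.173). In the imago it rose to 2207 ± 108 CPM, a log2 change of 1.49 ± 0.32 over the subimago (adjusted p = 0.00746) and 2.06 ± 0.32 over the mature larva (adjusted p = 0.000694). Both calls held when any 1 library was left out. Variation between libraries was small in the imago, with a coefficient of variation of 4.90% for bicaudal C and 4.44% for the receptor, against 26.8% for vitellogenin.

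**Figure D1:**
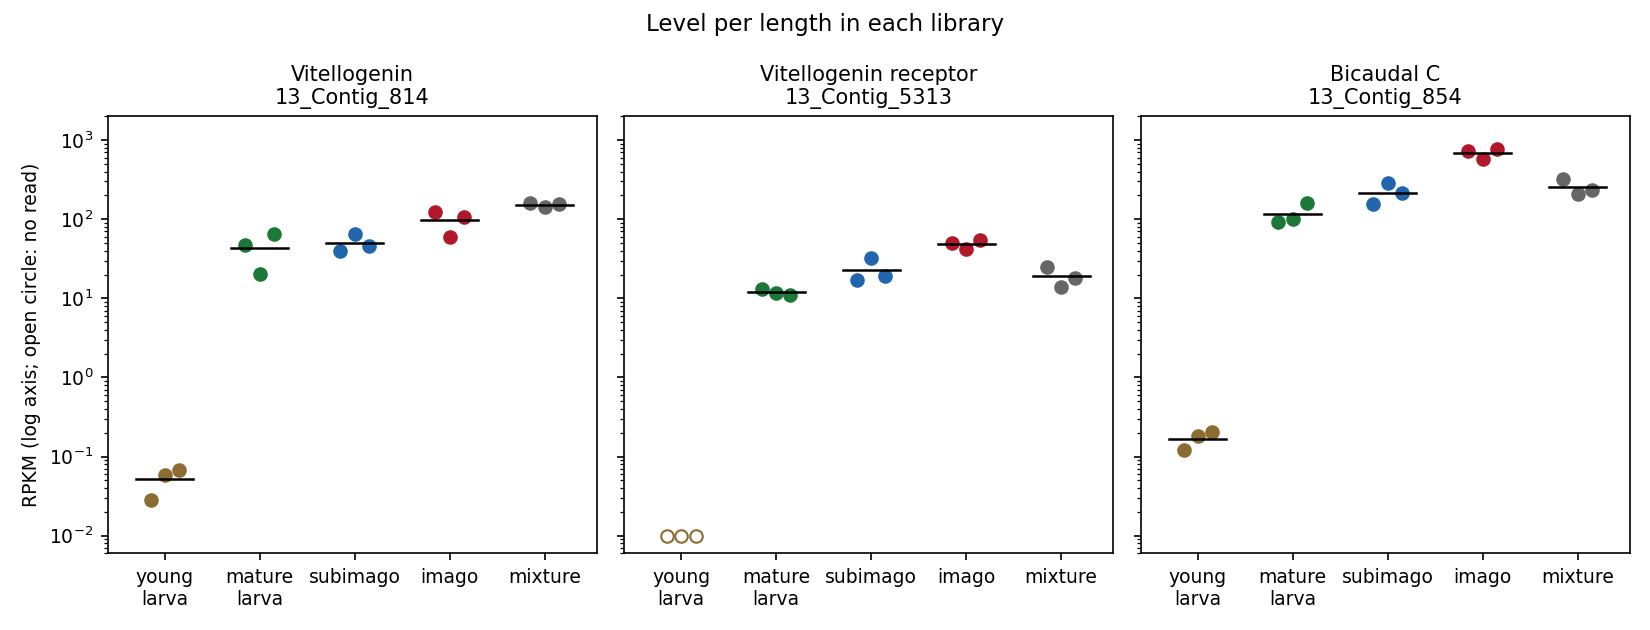
Deposited RPKM values of the 3 unigenes in each library, on a log axis, by stage and in the mixture. Points are libraries, black lines are group means and open circles mark libraries without a read. The mature larva libraries lie far above the young larva libraries for all 3 unigenes, and the imago libraries are separated from the other stages for the receptor and bicaudal C.

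These calls have to be read against how many unigenes changed at each step. From young to mature larva, 25.3% of the 34131 tested unigenes were called higher and 9.73% lower, and all 3 unigenes were among those called higher. With library totals in place of TMM scaling, 5384 unigenes were called higher and 5010 lower, against 8652 and 3322, and the median log2 change of all unigenes shifted by -0.52. Over the young larva the subimago had 29.7% called higher and 35.7% lower, and the imago 28.8% higher and 41.5% lower, and all 3 unigenes were called higher in both. Between the subimago and the mature larva 8.98% were called higher and 14.2% lower (3064 and 4833, or 4551 and 3045 with library totals), and 0 of the 3 unigenes were called by edgeR or by DESeq2. At an unadjusted p under 0.05, edgeR would have called 1 of the 3, the receptor. Scaling to library totals called the receptor (0.93, adjusted p = 0.0382) and bicaudal C (0.88, adjusted p = 0.0450) higher in the subimago.

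Between the imago and the subimago 6.74% of tested unigenes were called higher and 9.26% lower (2300 and 3161, or 2179 and 1966 with library totals), and the receptor and bicaudal C were among the higher ones. Between the imago and the mature larva 16.5% were called higher and 27% lower, and again the receptor and bicaudal C were called higher. Library totals turned the split of all calls in this comparison to 7396 higher and 5679 lower, against 5627 and 9227, and shifted the median of all unigenes by 0.42. The direction of the receptor and bicaudal C in the imago held under each scaling that was tried. Comparisons that share a stage share its libraries and are not independent of each other.

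**Figure D2:**
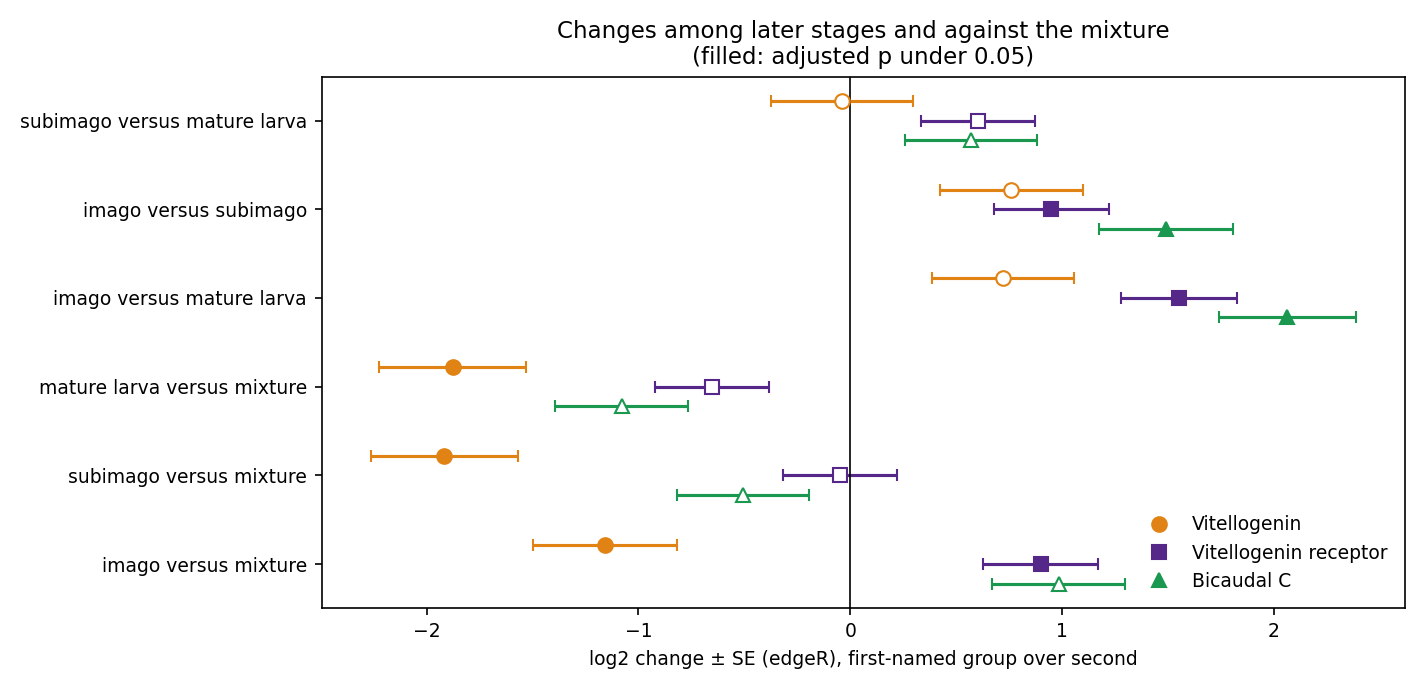
Log2 changes ± SE from edgeR for the 3 unigenes between later stages and against the mixture, each as the first-named group over the second. Filled symbols were called at an adjusted p under 0.05. The receptor and bicaudal C changed by 0.95 and 1.49 in the imago over the subimago, and all 3 vitellogenin values against the mixture lie below 0.

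Vitellogenin had 159.9, 142.2 and 157.3 RPKM in the mixture libraries, above all 12 stage libraries, of which the highest had 124.5 RPKM. The mixture averaged 723 ± 110 CPM, which was 5.58 times the stage means weighted by the number of animals pooled (4.40 times in RPKM), a weighting that takes each animal to give the same amount of RNA. Of the 1244 unigenes of the young larvae described above, 87, 127 and 134 had reads in the mixture libraries. Young larvae were 5 of the 11 animals pooled there, and what share of the RNA they gave was not tested. The ratio falls if these nearly silent animals are given less weight. The vitellogenin levels of the mature larva (-1.88 ± 0.35, adjusted p = 0.0275), the subimago (-1.92 ± 0.35, adjusted p = 0.0196) and the imago (-1.16 ± 0.34, adjusted p = 0.0382) were lower than that of the mixture. In these comparisons 0.744%, 1.7% and 11.5% of all tested unigenes were called lower and 0.352%, 0.589% and 5.22% higher. The split of 1782 higher and 3921 lower for the imago became 5592 and 2086 with library totals. For the mature larva 120 and 254 became 1 and 37 with library totals, and for the subimago 201 and 581 became 555 and 578 with DESeq2 size factors. The young larva was lower than the mixture for all 3 unigenes, where 29.1% of tested unigenes were called lower and 27.9% higher (9948 and 9523, or 6739 and 11994 with library totals).

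These 3 calls were close to the threshold. Library totals or leaving out the filter on low counts ended each of them. Against the mixture the mature larva was no longer called without mature larva replicate 2, subimago replicate 2 or 3, imago replicate 3 or mixture replicate 1 or 3 (-1.90 to -1.54, adjusted p = 0.0521 to 0.112). The subimago was no longer called without any of its own replicates or without mixture replicate 1 or 2 (-2.04 to -1.74, adjusted p = 0.0533 to 0.0818). The imago was no longer called without any of its own or the mixture's replicates, subimago replicate 2 or young larva replicate 2 (-1.35 to -0.95, adjusted p = 0.0530 to 0.142). The direction was the same in all of these fits.

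The receptor had 24.7, 13.8 and 18.3 RPKM in the mixture, between the mature larva and the imago. The imago averaged 129.8 ± 5.76 CPM and the mixture 69.6 ± 21.3 CPM, a log2 change of 0.90 ± 0.27 (adjusted p = 0.0477), where 5.22% of tested unigenes were called higher. That call was lost without any 1 of the young larva or imago replicates, mature larva replicate 3, subimago replicate 2 or mixture replicate 2 (0.66 to 0.92, adjusted p = 0.0509 to 0.170). The mature larva (-0.65 ± 0.27, adjusted p = 0.189) and the subimago (-0.05 ± 0.27, adjusted p = 1.00) were not called against the mixture for the receptor.

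Bicaudal C had 322.0, 207.0 and 231.2 RPKM in the mixture, within or above the subimago range and below every imago library. Its log2 change in the imago over the mixture was 0.98 ± 0.31 and missed the threshold (adjusted p = 0.0504). It was called when mature larva replicate 1, 2 or 3 or subimago replicate 1 or 3 was left out (0.97 to 1.03, adjusted p = 0.0163 to 0.0467). Ratios to the animal-weighted stage mean in CPM also depend here on the weight given to the young larvae. For bicaudal C the mixture was 1.74 times, and for the receptor 1.59 times, that mean. Why vitellogenin stands further above that mean was not tested.

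Ratios between the 3 unigenes within a library do not depend on how libraries are scaled. Per length, bicaudal C was the most abundant and the receptor 13_Contig_5313 the least abundant of the 3 in each of the 12 libraries of the mature larva, the subimago, the imago and the mixture. Ratios to the receptor depend on this choice of unigene. The other long receptor unigene, 13_Contig_598, had 1.34 to 3.88 times its RPKM in these stages. It lay above vitellogenin in every subimago library, mature larva replicate 2 and imago replicate 2, and below it in the remaining libraries of these groups. The RPKM ratio of vitellogenin to the receptor was 3.58, 1.70 and 5.84 in the mature larvae, 2.30, 2.01 and 2.40 in the subimagoes and 2.48, 1.41 and 1.95 in the imagoes. The mature larvae spread widely and overlapped the other stages, and over these 9 libraries the stages did not differ in an exact permutation test of the between-stage F statistic (p = 0.264, over 1680 assignments with a smallest possible p of 0.00357).

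The RPKM ratio of vitellogenin to bicaudal C was 0.516, 0.198 and 0.400 in the mature larvae, 0.256, 0.228 and 0.214 in the subimagoes and 0.170, 0.102 and 0.138 in the imagoes. Every imago library lay below every library of the other stages. The geometric means were 0.344, 0.232 and 0.134, and the exact permutation test gave p = 0.0286, or 0.0857 after Benjamini-Hochberg adjustment over the 3 ratios. Without mature larva replicate 2, which had the lowest vitellogenin of its group, the adjusted p was 0.0107, and the ratio to the receptor also passed (adjusted p = 0.0321).

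The RPKM ratio of bicaudal C to the receptor was 6.94, 8.58 and 14.6 in the mature larvae, 9.00, 8.82 and 11.2 in the subimagoes and 14.6, 13.7 and 14.1 in the imagoes. The imagoes agree closely among themselves and overlap only with mature larva replicate 3. The stages did not pass the exact permutation test (p = 0.207, adjusted p = 0.264), and did without mature larva replicate 3 (adjusted p = 0.0107). In the mixture the ratio of vitellogenin to the receptor was 6.46, 10.3 and 8.60, above every library of a single stage, and the ratio of bicaudal C to the receptor was 13.0, 15.0 and 12.6.

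**Figure D3:**
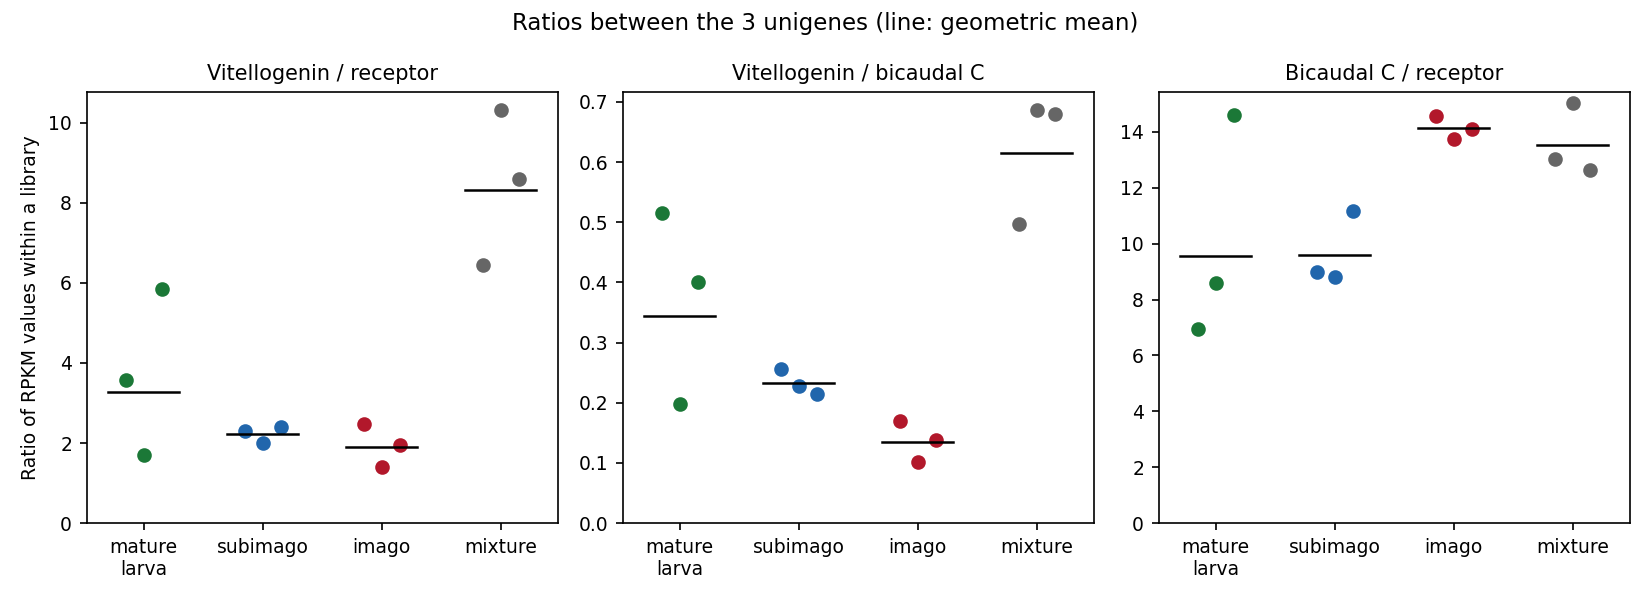
Ratios of RPKM values between the 3 unigenes within each library, on linear axes that start at 0, for the mature larva, the subimago, the imago and the mixture. Points are libraries and black lines are geometric means. The ratio of vitellogenin to bicaudal C is lowest in the imago libraries (0.102 to 0.170), and the mixture libraries have the highest ratio of vitellogenin to the receptor (6.46 to 10.3).

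Over all 15 libraries the log2(CPM + 0.5) values of the 3 unigenes moved together, with Pearson correlations of 0.969 between vitellogenin and the receptor, 0.979 between vitellogenin and bicaudal C and 0.997 between the receptor and bicaudal C. These values describe mostly the gap between the young larvae and all other libraries. Over the 9 libraries of the mature larva, the subimago and the imago they were 0.596, 0.746 and 0.950. The receptor and bicaudal C stayed close to each other in these libraries, and vitellogenin was further from both.

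Other unigenes carry the same names. First_Contig1589 (2061 bp, putative vitellogenin-1, best hit in the bug Triatoma infestans) had 2, 4 and 1 reads in the young larvae. It had 13.7, 4.47 and 16.3 RPKM in the mature larvae, 9.61, 21.1 and 11.4 RPKM in the subimagoes, 22.3, 13.6 and 26.8 RPKM in the imagoes and 24.3, 20.0 and 19.8 RPKM in the mixture. Its libraries rank much like those of 13_Contig_814, with a low mature larva replicate 2 and a low imago replicate 2. It rose in the mature larva over the young larva by a log2 value of 9.17 ± 0.57 (adjusted p = 5.84e-08), and no later pair of stages was called. Within a library 13_Contig_814 had 3.06 to 5.58 times its RPKM in the mature larvae, subimagoes and imagoes, and 6.58 to 7.95 times its RPKM in the mixture. Whether both are pieces of 1 gene or products of separate genes, and how reads were shared between them, is not known from the table. A short unigene annotated as vitellogenin, 13_Contig_73586 (375 bp), had 2 to 4 reads in each subimago and imago library and none elsewhere, and was not tested.

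A second long unigene annotated as vitellogenin receptor, 13_Contig_598 (3177 bp, best hit in the cockroach Blattella germanica), had 6, 37 and 10 reads in the young larvae. It had 37.3, 26.3 and 33.0 RPKM in the mature larvae, 66.6, 75.4 and 53.6 RPKM in the subimagoes and 71.8, 61.1 and 73.9 RPKM in the imagoes. In contrast to 13_Contig_5313, its subimagoes and imagoes overlapped. It rose in the mature larva over the young larva (8.58 ± 0.47, adjusted p = 1.98e-08), while the imago over the subimago gave -0.08 ± 0.33 (adjusted p = 0.983). Its subimago (0.73 ± 0.33, adjusted p = 0.118) and imago (0.65 ± 0.33, adjusted p = 0.124) were not called over the mature larva, although their libraries did not overlap. Both were called without young larva replicate 2, which held 37 of its reads (0.72, adjusted p = 0.00322, and 0.64, adjusted p = 0.00115), and by DESeq2. Its RPKM was 2.23 to 3.00 times that of 13_Contig_5313 in the mature larvae, 2.34 to 3.88 times in the subimagoes and 1.34 to 1.44 times in the imagoes, so that the imago libraries lay below all others of a single stage. This ratio was chosen after the values of both unigenes had been seen and was not tested.

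The short receptor unigene 13_Contig_52163 (302 bp, best hit in the moth Helicoverpa armigera) ran the other way. It had 84, 134 and 140 reads in the young larvae, 52, 8 and 13 in the mature larvae and at most 7 in every subimago, imago and mixture library. It fell in the mature larva by 2.42 ± 0.44 on the log2 scale (adjusted p = 0.000762) and was lower again in the subimago than in the mature larva (-3.13 ± 0.53, adjusted p = 0.00347). Its highest mature larva library was replicate 1, the one that held reads of 1239 unigenes in the set of 1244 described above. No other unigene was annotated as bicaudal C.

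**Figure D4:**
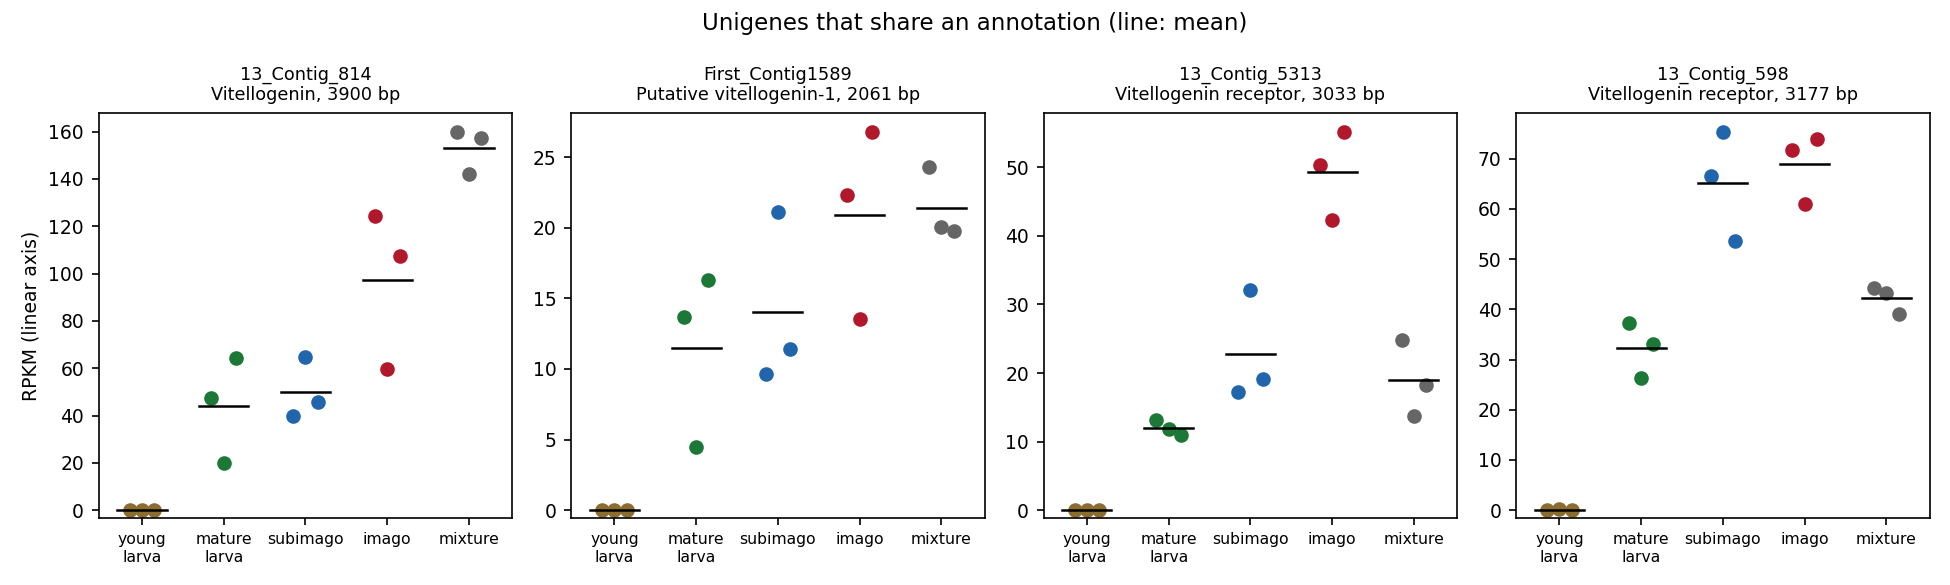
Deposited RPKM values in each library, on linear axes that differ between panels, of the 4 long vitellogenin and vitellogenin receptor unigenes. Points are libraries and black lines are group means. The imago libraries of receptor 13_Contig_5313 (42.4 to 55.2 RPKM) lie above its subimago libraries, while those of receptor 13_Contig_598 (61.1 to 73.9 RPKM) overlap with them.

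The unigenes whose levels followed each of the 3 most closely over 15 libraries were picked by Pearson correlation of log2(CPM + 0.5) among 10881 arthropod-hit unigenes. For vitellogenin they were First_Contig1589 (r = 0.996), a histone H1 (13_Contig_411, r = 0.979), a zinc finger protein (13_Contig_17258, r = 0.979) and the uncharacterised 13_Contig_18671 and 13_Contig_4012. For the receptor they were the Dom3Z-like 13_Contig_1420 (r = 0.996), Hunchback (13_Contig_2947, r = 0.996), known as a zinc finger factor of the anterior embryo in Drosophila, and 3 uncharacterised unigenes, 13_Contig_1923, 13_Contig_407 and 13_Contig_1369. For bicaudal C they were an argonaute (13_Contig_178, r = 0.997), a small-RNA effector protein, an inhibitor of apoptosis (13_Contig_6253), the LIM homeobox factor Awh (13_Contig_10886) and the uncharacterised 13_Contig_407 and 13_Contig_4817. The argonaute averaged 876 CPM in the imago, 207 CPM in the subimago, 172 CPM in the mature larva and 0.112 CPM in the young larva.

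Over the 9 libraries of the mature larva, the subimago and the imago the closest unigenes were different. They were the sugar transporter SWEET (13_Contig_3895, r = 0.964), a tick transposon (13_Contig_25605) and 13_Contig_12473 for vitellogenin. For the receptor they were a bone morphogenetic protein receptor type-2 (13_Contig_399, r = 0.994), a nucleolar protein (13_Contig_16841) and hormone-sensitive lipase (13_Contig_13237, r = 0.991), a lipid-mobilising enzyme. For bicaudal C they were Cyclin-J-like (13_Contig_3695, r = 0.998), whose Drosophila counterpart acts in oogenesis, and the unnamed 13_Contig_425 and 13_Contig_7103. All of these correlations share the libraries and their scaling and are descriptions of likeness. Rank correlation over the same 9 libraries picked different unigenes for vitellogenin, the receptor and bicaudal C. The neighbours named here therefore depend on the measure, and whether they act together with these unigenes was not tested.

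Unigenes of yolk formation were counted by lists, which include the 3 unigenes themselves. Of all tested unigenes, 25.3% were called higher and 9.73% lower in the mature larva over the young larva. In the imago over the mature larva 16.5% were called higher and 27% lower. Of the 6 tested unigenes of yolk precursors and lipid carriers, 2 rose in the mature larva over the young larva and 3 fell, with a median log2 change of -0.88 against -0.05 for all tested unigenes. The 2 that rose were the vitellogenins. The 3 that fell were apolipophorins, the haemolymph lipid carriers, of which 13_Contig_5361 had 36.3 ± 10.6 CPM in the mature larvae and 117 ± 26.4 CPM in the young larvae (-1.69 ± 0.26, adjusted p = 0.000242), and 13_Contig_13553 fell by 1.16 ± 0.25. Without 13_Contig_814 itself the median over 5 unigenes was -1.16 in the mature larva over the young larva and -0.53 in the imago over the mature larva. In the imago over the mature larva 0 of the 6 rose and 2 fell, with a median of -0.07 against -0.62 for all tested unigenes. They were 13_Contig_5361 (-1.59 ± 0.26) and the microsomal triglyceride transfer protein 13_Contig_7587, which loads lipid onto such carriers, at 3.14 ± 0.296 CPM in the imagoes and 39.5 ± 22.3 CPM in the mature larvae (-3.65 ± 0.47, adjusted p = 0.000278). Without mature larva replicate 1 or 3, 1 of the list was called higher in the imago.

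Of 31 tested unigenes of yolk uptake, 13 rose in the mature larva over the young larva and 5 fell, and in the imago over the mature larva 8 rose and 11 fell. Their median log2 change was 0.27 against -0.05 for all tested unigenes at the first step, and -0.35 against -0.62 between the imago and the mature larva. Without 13_Contig_5313 itself 12 of 30 rose at the first step and 7 in the imago over the mature larva, with medians of 0.22 and -0.36. The clathrin heavy chain 13_Contig_4600, the coat of endocytic vesicles, rose in the imago to 217 ± 8.41 CPM, against 76.7 ± 8.58 CPM in the mature larvae (1.50 ± 0.22, adjusted p = 0.000522). Another clathrin heavy chain, 13_Contig_3854, was named after its values were seen and was not called (0.11 ± 0.13, adjusted p = 0.523). A low-density lipoprotein receptor (13_Contig_12834) fell in the mature larva over the young larva (-1.85 ± 0.33) and again in the imago over the mature larva (-2.05 ± 0.34). The lipophorin receptor 13_Contig_1307, also named after its values were seen, had 163 ± 52.2 CPM in the mature larvae and 59.4 ± 6.55 CPM in the young larvae (1.45 ± 0.21, adjusted p = 0.000141). Dynamin-1-like protein (13_Contig_1210, 0.99 ± 0.16 in the imago over the mature larva) is known in other animals for mitochondrial division, and low-density lipoprotein receptor-related protein 6 (13_Contig_9053, -0.82 ± 0.13) for Wnt signalling. The fall of 13_Contig_9053 was not called with library totals (-0.37, adjusted p = 0.173). Without any 1 imago library 7 of the list, not 11, were called lower in the imago, and without young larva replicate 1 or 3, subimago replicate 2, any 1 imago library or mixture replicate 1 or 2, 3 were called lower in the mature larva. With library totals the list split into 7 higher and 8 lower at the first step, and 11 higher and 6 lower in the imago over the mature larva.

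Of 18 tested unigenes of RNA localisation in the egg, 10 rose and 2 fell in the mature larva over the young larva, where 25.3% of all tested unigenes were called higher and 9.73% lower. Without bicaudal C itself 9 of 17 rose, with a median log2 change of 0.76 over the 18 against -0.05 for all tested unigenes. Exuperantia (13_Contig_1200), which localises bicoid RNA in the Drosophila oocyte, had 1636 ± 538 CPM in the mature larvae and 5.71 ± 0.584 CPM in the young larvae (8.16 ± 0.29, adjusted p = 6.37e-10). In the imago it fell to 575 ± 73.6 CPM, against those mature larvae (-1.51 ± 0.22, adjusted p = 0.000444), a stage at which bicaudal C rose. The RNA-binding proteins staufen (13_Contig_7731, -1.08 ± 0.21) and pumilio (13_Contig_37898, -1.06 ± 0.35) fell in the mature larva, and the call of pumilio was lost without any of 8 single libraries. Oskar (13_Contig_1990), the organiser of germ plasm, was named after its values were seen. It had 238 ± 66.4 CPM in the mature larvae and 6.42 ± 2.01 CPM in the young larvae (5.21 ± 0.28, adjusted p = 1.35e-08). Between the imago and the mature larva 6 of the 18 rose and 7 fell (median 0.33 against -0.62), among the risers a maternal protein tudor (13_Contig_5178, 2.02 ± 0.45, adjusted p = 0.00429) and among the fallers pumilio (-2.75 ± 0.37). Without imago replicate 1, 3 were called higher, and without mature larva replicate 1, 4 were called lower at the first step. With library totals the counts were 6 higher and 3 lower at the first step, and 9 higher and 3 lower in the imago over the mature larva.

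The germ line and piRNA list was meant to hold proteins that guard the germ line against transposons. It was picked by annotation words, and whether each member has that role was not tested. Of its 18 tested unigenes, 10 rose and 2 fell in the mature larva over the young larva, with a median log2 change of 1.72 against -0.05. In the imago over the mature larva 8 rose and 2 fell, with a median of 0.59 against -0.62. A piwi unigene (13_Contig_7494) had 101 ± 53.9 CPM in the mature larvae and 0.879 ± 0.278 CPM in the young larvae (6.84 ± 0.49, adjusted p = 2.50e-07). Vasa (13_Contig_2231), the germ line helicase, had 190 ± 43.4 CPM in the mature larvae and 25.4 ± 8.25 CPM in the young larvae (2.90 ± 0.22, adjusted p = 4.46e-07). The fallers at this step were 2 piwi-like unigenes, 13_Contig_22908 (-3.49 ± 0.81) and 13_Contig_34547 (-2.46 ± 0.75). The call of 13_Contig_34547 was lost without mature larva replicate 2 or young larva replicate 2 or 3, and without a filter (-2.49 to -2.17, adjusted p = 0.0652 to 0.102). In the imago over the mature larva a piwi-like unigene (13_Contig_1207, 1.55 ± 0.29) and tudor domain-containing protein 3 (13_Contig_5599, 1.08 ± 0.17) rose. Tudor domain-containing protein 7 (13_Contig_5441, -1.60 ± 0.15) and 13_Contig_22908 (-2.83 ± 0.80) fell, and 13_Contig_22908 was not called without mature larva replicate 1 (-0.90, adjusted p = 0.174). The maternal tudor unigenes 13_Contig_5178 and 13_Contig_6605 are in this list and in the list of egg RNA localisation.

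Of 8 tested eggshell unigenes, 3 rose and 1 fell at the first step, and 1 rose and 6 fell in the imago over the mature larva, with medians of 0.90 and -2.50 against -0.05 and -0.62. Most of them are annotated as the serine protease nudel, which in Drosophila acts in the vitelline space, and the risers at the first step were 3 nudel unigenes. Of these, 13_Contig_35807 had 3.95 ± 3.76 CPM in the mature larvae and 0.219 ± 0.126 CPM in the young larvae (4.13 ± 0.79, adjusted p = 0.00115). Another, 13_Contig_27428 (3.05 ± 0.78, adjusted p = 0.00851), was not called without mature larva replicate 3 (1.87, adjusted p = 0.0543), where 1 of the list was higher at the first step and 3 lower in the imago. A chorion peroxidase, 13_Contig_16163, rose in the imago to 21.9 ± 4.95 CPM, against 6.98 ± 2.73 CPM in the mature larvae (1.65 ± 0.41, adjusted p = 0.00865). A putative one, 13_Contig_8552, averaged 70.1 ± 8.47 CPM in the young larvae, 16.8 ± 7.54 CPM in the mature larvae, 81.7 ± 37.2 CPM in the subimagoes and 1.25 ± 0.129 CPM in the imagoes. It fell in the mature larva over the young larva (-2.06 ± 0.45), rose in the subimago over the mature larva (2.28 ± 0.45, adjusted p = 0.00884) and fell in the imago over the subimago (-6.02 ± 0.54) and over the mature larva (-3.74 ± 0.49). Both of its comparisons with the subimago were added after its values were seen. The nudel unigene 13_Contig_21421 fell in the imago over the mature larva (-2.27 ± 0.36).

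Among 31 tested unigenes of the hormones that control yolk formation in insects, 11 rose and 7 fell in the mature larva over the young larva, and 5 rose and 15 fell in the imago over the mature larva (medians 0.17 and -0.91 against -0.05 and -0.62). Ecdysone 20-monooxygenase (13_Contig_3366), which makes the active moulting hormone, had 83.1 ± 29.1 CPM in the mature larvae and 0.0943 ± 0.0613 CPM in the young larvae (9.69 ± 0.43, adjusted p = 2.99e-09), a change close in size to those of vitellogenin and bicaudal C. The list holds 6 unigenes of the ecdysone-responsive factor Broad. In the mature larva over the young larva 13_Contig_5238 (1.68 ± 0.14), 13_Contig_8397 (1.70 ± 0.15) and 13_Contig_1375 (3.50 ± 0.34) rose, while 13_Contig_15337 (-2.14 ± 0.52), 13_Contig_15024 (-2.17 ± 0.54) and 13_Contig_3631 (-1.93 ± 0.50), named after their values were seen, fell. In the imago over the mature larva 13_Contig_5238 (0.69 ± 0.14) and 13_Contig_8397 (0.72 ± 0.14) rose and the other four fell, by log2 changes of -2.82 ± 0.33 for 13_Contig_1375, -2.09 ± 0.52 for 13_Contig_15337, -1.60 ± 0.53 for 13_Contig_15024 and -2.25 ± 0.50 for 13_Contig_3631. Without mature larva replicate 1, this change was -1.29 for 13_Contig_15337 and -0.82 for 13_Contig_15024, which was then not called (adjusted p = 0.225). The call of 13_Contig_15024 was also lost without any 1 imago library, without the mixture, with library totals, without a filter and with a replicate block. The nuclear receptor HR3 (13_Contig_1820) had 32.0 ± 4.01 CPM in the imagoes and 740 ± 460 CPM in the mature larvae (-4.53 ± 0.60, adjusted p = 0.000337). Juvenile hormone epoxide hydrolases, which break down juvenile hormone, fell in the mature larva (13_Contig_8447, -1.85 ± 0.29, and 13_Contig_19816, -2.23 ± 0.51). Without mature larva replicate 1, 11 of the list were called lower at the first step, and without any 1 imago library 9 were called lower in the imago. Without imago replicate 1 or 3, 3 were called higher there. With library totals 6 rose and 8 fell at the first step, and 7 rose and 9 fell in the imago over the mature larva.

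Of 20 tested nutrient signalling unigenes, which include the insulin and TOR pathways that tie yolk formation to feeding, 10 rose and 3 fell in the mature larva over the young larva, and 9 rose and 3 fell in the imago over the mature larva (medians 0.43 and 0.27 against -0.05 and -0.62). Tuberin (13_Contig_3076), an inhibitor of TOR signalling, had 151 ± 1.16 CPM in the imagoes and 73.0 ± 12.8 CPM in the mature larvae (1.05 ± 0.15, adjusted p = 0.000444). The insulin-like peptide receptor 13_Contig_108 fell in the mature larva, to 56.8 ± 15.4 CPM, against 101 ± 7.22 CPM in the young larvae (-0.83 ± 0.20, adjusted p = 0.00681). A putative ribosomal protein S6 kinase alpha-5 (13_Contig_1053, 1.55 ± 0.12) and an acid labile chain unigene (13_Contig_3383, 2.69 ± 0.21) rose at the same step. Another acid labile chain (13_Contig_38887, -1.50 ± 0.33) and a putative insulin receptor tyrosine kinase substrate-like protein (13_Contig_8885, -3.01 ± 0.22) fell in the imago over the mature larva. Whether these unigenes act in the insulin or TOR pathway was not tested. Some members only share a word with the pathway, among them the homeobox factor ISL-2 (13_Contig_20968, -1.91 ± 0.60 in the mature larva) and an RNA-binding protein of insulin-like growth factor messages (13_Contig_1430, 1.26 ± 0.18 in the imago). Without mature larva replicate 1, 5 were called lower at the first step, and without mature larva replicate 2 or 3 or young larva replicate 1 or 3, 1 was. With library totals 8 rose and 4 fell at the first step, and the fall of 13_Contig_38887 in the imago over the mature larva was not called (-1.04, adjusted p = 0.0654).

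Since the later libraries hold males as well, sperm and axoneme unigenes were counted beside them. Of 16 tested, 5 rose and 2 fell in the mature larva over the young larva. In the imago over the mature larva 3 rose and 6 fell. The medians were -0.28 and -1.14 against -0.05 and -0.62 for all tested unigenes. Of all tested unigenes 25.3% were called higher and 9.73% lower at the first step, and 16.5% and 27% in the imago over the mature larva. A sperm-tail PG-rich repeat unigene (13_Contig_1196), like the vitellogenin receptor, was without a read in all young larva libraries, and it averaged 52.5 ± 12.5 CPM in the mature larvae (adjusted p = 7.29e-09). Outer dense fiber proteins of the sperm tail fell in the imago (13_Contig_6302, -2.26 ± 0.39, and 13_Contig_23518, -1.58 ± 0.34). The 2 fallers of the mature larva, the axonemal tektin-3 (13_Contig_10224, -0.49 ± 0.15) and an axonemal protein (13_Contig_47638, -2.03 ± 0.70), were both not called without imago replicate 1 or 2, subimago replicate 1 or 2 or young larva replicate 1 or 3. With library totals 4 of the list rose and 5 fell at the first step. Some of the list are not specific to sperm, such as the kinase 13_Contig_1101 (0.76 ± 0.16 in the imago) and sperm-associated antigen 7 (13_Contig_2705, 1.69 ± 0.14 in the mature larva). The part of testis development or of sex ratio in any change above was not tested.

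**Figure D5:**
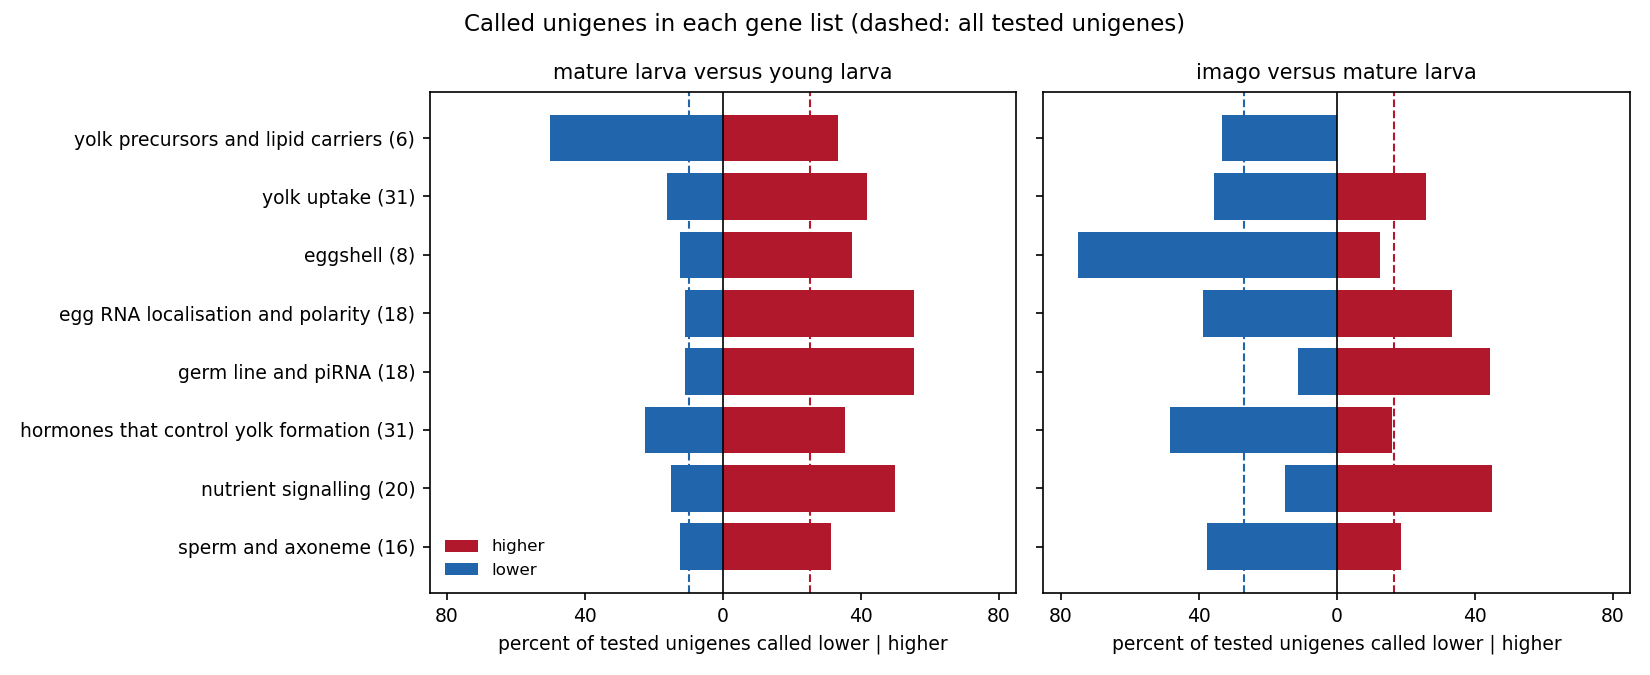
Percent of the tested unigenes in each gene list that were called lower (left) or higher (right), for the mature larva over the young larva and the imago over the mature larva, with the number tested in brackets. Dashed lines give the share over all tested unigenes (25.3% higher and 9.73% lower, and 16.5% higher and 27% lower). In both comparisons the germ line and nutrient lists have more risers than fallers, whereas the eggshell list has mostly fallers in the imago.

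In the subimago over the mature larva, where 8.98% of all tested unigenes were called higher and 14.2% lower, 0 rose and 1 fell of the yolk precursors, 5 rose and 6 fell of yolk uptake, 1 rose and 5 fell of the eggshell, and 2 rose and 3 fell of egg RNA localisation. The counts were 3 and 0 for the germ line, 2 and 7 for the hormones, 6 and 1 for nutrient signalling and 1 and 4 for sperm. Many of these counts changed when a single library was left out. Without mature larva replicate 1, 0 unigenes of the yolk uptake, egg RNA localisation, germ line, hormone and sperm lists and 2 of the nutrient list were called higher, and 4 of the hormone and 1 of the sperm list lower. Without subimago replicate 2 or 3, 1 unigene each of the eggshell, hormone and sperm lists was called lower. Without subimago replicate 1 the lower counts were 3, 2 and 1 for these lists. Leaving out any 1 subimago library left 2 of the nutrient list called higher.

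In the imago over the subimago, where 6.74% of all tested unigenes were called higher and 9.26% lower, 0 rose and 2 fell of the yolk precursors, 4 rose and 3 fell of yolk uptake, 2 rose and 1 fell of the eggshell, and 5 rose and 3 fell of egg RNA localisation. The counts were 6 and 1 for the germ line, 2 and 3 for the hormones, 4 and 2 for nutrient signalling and 1 and 0 for sperm. Without subimago replicate 1 the higher counts were 3 for egg RNA localisation, 3 for the germ line, 0 for the hormones and 1 for nutrient signalling. The germ line list also had 3 called higher without imago replicate 1 or 3. With mature larva replicate 1 left out, 5 unigenes of the yolk uptake list and 5 of the hormone list were called lower. With DESeq2 11 of the yolk uptake list were called higher. Other counts of these 2 comparisons also moved when single libraries were left out.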

How the data were processed

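RNA of 15 libraries of whole mayflies, 3 for each of 4 stages and the mixture, was analysed from 1 deposited table. Per the labels' protocols, libraries were made with a TruSeq kit, read as 125 bp pairs, cleaned of low-quality and ribosomal reads and assembled with CLC Genomics Workbench and CAP3. DESeq is named without a version in the submitters' processing notes. How reads were mapped and counted, and whether strand was used, is not given in the sources used here.

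The deposited table holds raw read counts of each unigene as the authors made them, and RPKM values, which the authors scaled by unigene length and library total and which match the counts to a relative difference of 3.42e-07. It lists the length of each unigene and a best protein hit for 31014 of 91881. Pieces or near copies of 1 gene can share reads, so single unigenes of a family are uncertain.

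Counts were tested with edgeR 4.0.16 (limma 3.58.1, R 4.3.3; glmQLFit and glmQLFTest, robust) over all 15 libraries, with TMM scaling and filterByExpr, which kept 34131 unigenes. DESeq2 1.42.0, other scalings and filters, a replicate block and leaving out each library were alternatives. On data simulated for the mature larva over the young larva the test found 6.15%, 89.6% and 100% of unigenes changed by 1, 2 and 3 on the log2 scale, with a false share of 0.0365. These shares describe the simulated data, and whether they carry over to the measured libraries was not tested. Intervals and floors of 3 reads cover counting error only. Ratios were tested by exact permutation, in Python 3.11.15 with scipy 1.17.1, figures drawn with matplotlib 3.10.9.

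The 8 lists (yolk precursors, yolk uptake, eggshell, egg RNA localisation, germ line, hormones, nutrient signalling, sperm) hold arthropod-hit unigenes whose annotation has a fixed word at the start of a word; this last condition was added since parts of words had matched. The members and the lists were chosen with earlier results of these data known. Named unigenes are the 3 members, others with their annotation, the up to 2 called with the smallest adjusted p per list and direction in the mature larva over the young larva and in the imago over the mature larva, and the 5 (15 libraries) or 3 (9 libraries) most similar ones with a mean of at least 1 CPM in a stage. Exceptions are marked in the text.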

Additional observations from a re-analysis of the deposited data

How the results depend on the processing

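Of 708 recomputed values of the 33 comparisons of the 3 unigenes, 643 kept their side of the threshold and none of those called reversed. Values that were not called could change direction when 1 library was left out. For vitellogenin in the subimago over the mature larva they ran from -0.37 to 0.40. For the receptor in the subimago over the mixture they ran from -0.29 to 0.14. All calls against the young larva, and those of the receptor and bicaudal C in the imago over the mature larva and of bicaudal C over the subimago, held under each alternative run. With library totals the log2 changes that crossed the threshold were, for vitellogenin, 1.15 (imago over mature larva), -1.80, -1.61 and -0.66 (mature larva, subimago and imago over mixture), and 0.93 and 0.88 for the receptor and bicaudal C (subimago over mature larva). For bicaudal C in the imago over the mixture they were 1.46 with library totals, 1.19 with DESeq2 or its size factors, 0.87 with scaling on arthropod-hit unigenes and 1.04 with a stricter filter. DESeq2 gave -1.03 for bicaudal C in the mature larva over the mixture, and 0.89 and 0.87 for vitellogenin in the imago over the subimago and over the mature larva. DESeq2 size factors gave -0.95 for vitellogenin in the imago over the mixture. Without a filter the values lost were -1.79, -1.90 and -1.21 (vitellogenin, mature larva, subimago and imago over mixture) and 0.86 (receptor, imago over mixture). The cause of these changes was not tested.

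Deviations of same-numbered libraries correlated at -0.247 to 0.572. Between the young and the mature larva the values were 0.548, 0.572 and -0.247 for replicates 1, 2 and 3. Other same-numbered pairs lay between -0.117 and 0.134. With 3 libraries in each group these values cannot decide whether the numbers pair the libraries. With the replicate block the log2 change of vitellogenin in the imago over the mature larva was 0.79 and of bicaudal C in the imago over the mixture 0.97, both now called, and the receptor gave 0.96 (imago over subimago) and 0.89 (imago over mixture), both no longer called. The count of unigenes lower in the subimago than in the mature larva was 2880 with the block and 4833 without it, and that of unigenes lower in the mature larva than in the mixture 149 and 254.

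Leaving out 1 library at a time gave ranges, for vitellogenin, of 0.43 to 1.16 (imago over mature larva), -2.33 to -1.54 (mature larva over mixture), -2.04 to -1.74 (subimago over mixture) and -1.35 to -0.95 (imago over mixture). They were 0.75 to 1.14 (imago over subimago) and 0.66 to 1.09 (imago over mixture) for the receptor, and 0.80 to 1.15 (imago over mixture) for bicaudal C. The log2 difference of ratios between imago and mature larva ranged from -1.27 to -0.38 (vitellogenin to receptor), -1.76 to -1.07 (vitellogenin to bicaudal C) and 0.34 to 0.87 (bicaudal C to receptor).

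Counts of called unigenes moved more. In the mature larva over the young larva they were 8652 higher and 3322 lower, with ranges of 5384 to 9619 and 1755 to 9932, the last without mature larva replicate 1. In the subimago over the mature larva 3064 (783 to 5522) were higher and 4833 (1067 to 6611) lower. In the imago over the subimago 2300 (1074 to 4486) were higher and 3161 (1908 to 3814) lower, and in the imago over the mature larva 5627 (3705 to 7530) and 9227 (5001 to 11194). In the imago over the mixture 1782 (151 to 6337) were higher and 3921 (1827 to 4715) lower. In the mature larva over the mixture 120 (1 to 2790) were higher and 254 (37 to 1696) lower, and in the subimago over the mixture 201 (3 to 2058) and 581 (23 to 1806). Of the nearest neighbours by correlation over 9 libraries, 0 were shared with those by rank correlation for each of the 3 unigenes. Of 80 calls of the other unigenes named, 65 were kept in all alternatives, 15 were lost in at least 1 and 0 reversed. At 27 reads in 3 libraries, as for vitellogenin in the young larva, counting limits the size of a fold.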
